A study of Marchantia polymorpha with 12 samples.

Results

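The response to wounding was measured in a double mutant of the liverwort Marchantia polymorpha, titled Mpfad3fad7, by setting 3 libraries of wounded plants against 3 libraries of unwounded (mock) plants. These 6 libraries were chosen by their labels alone, from 12 in all. The other 6 are mock and wounded libraries of Tak-1, a male wild-type strain, which served to estimate the spread and to test where the mutant response differed. All plants, Tak-1 included, grew for 3 weeks on agar of 0.5-strength Gamborg B5, and apical fragments free of gemma cups were taken, under the tissue label "Leaflets". Wounding was done with tweezers 2 h before freezing, and the mock groups carry the same time. Each replicate was described as an independent pool of 6 to 8 plants. How many lines of the mutant were used is not given in the sources used here.

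The mutated genes are named differently in the labels. The titles and the genotype entry give Mpfad3fad7, whereas the growth protocol gives Mpdes6fad5. The reference table keeps MpFAD3, MpDES5 (synonym MpFAD7), MpDES6 and MpFAD5 apart, so the transcript of each was looked at before the response. Levels are CPM, counts per 1000000 counts of the scaled library total, and libraries are given in the order 1, 2 and 3 for mock and 1, A and B for wounded plants. MpFAD3 had 250.1, 255 and 235 CPM in the mutant mock libraries and 248, 254 and 236 CPM in the wounded ones, beside 205, 217 and 218 CPM in Tak-1 mock and 219.7, 210.1 and 237 CPM in wounded Tak-1. MpDES5 had 152, 137 and 140.2, then 194, 206 and 201 CPM in the mutant, and 123, 124 and 132, then 180.1, 171 and 177 CPM in Tak-1. MpDES6 had 106, 83.7 and 80.2, then 45.5, 45.8 and 42.7 CPM in the mutant, and 78.6, 77.6 and 84.7, then 44.6, 30.4 and 38.9 CPM in Tak-1. MpFAD5 had 295, 343 and 300.5, then 339, 378 and 338 CPM in the mutant, and 234, 202 and 247, then 349, 373 and 359 CPM in Tak-1. All of these transcripts were thus present in every mutant library, and a transcript level does not check an edited sequence.

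When a plant cell is crushed, lipases free polyunsaturated fatty acids from membranes, lipoxygenases add oxygen to them, and the products feed the synthesis of oxylipins such as jasmonates. The last double bond of the fatty acids that normally become jasmonate precursors is set by omega-3 desaturases. In Marchantia the ligand of the receptor COI1 is dinor-OPDA rather than jasmonoyl-isoleucine, and the bound receptor has the JAZ repressor degraded, which releases transcription of its targets, the JAZ gene itself among them. Wounding also starts calcium and kinase signalling, the building of phenolic barriers and the making of defence proteins, and it commonly slows growth.

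The mutant libraries held between 19121900 and 28674354 counts, so that 3 counts in a library correspond to 0.108 to 0.158 CPM. In a principal component analysis of the 6 mutant libraries, component 1 (79.1% of the variance) placed mock at -67.8 to -53.5 and wounding at 54.3 to 64.9. On component 2, with 9.43%, mock library 1 stood apart at 41.2, against -13.2 and -24.0 for mock libraries 2 and 3. In mock library 1, 657 of 13726 tested genes lay more than 1 log2 unit from the mean of the other mock libraries, against 520 and 528 for libraries 2 and 3. Of these 657, 473 lay above, among them 30 of the 61 tested LEA genes. LEA (late embryogenesis abundant) proteins accumulate in drying tissue, and results that rest on them are given with and without that library below. Among the wounded libraries, genes that rose at least 4-fold were lowest in library 1, with a median 0.21 log2 units under the mean of the others, and highest in library B, 0.21 above. Wounded libraries A and B share a column name, so they carry no replicate number of their own. The gene NOP1, needed for air chambers of the thallus, stood at 96.8, 93.6 and 102 CPM in the mock libraries. Of the sperm and antheridium list 3 of 6 genes passed the low-count filter, together at 63.4 to 74.0 CPM in all 6 libraries. The series holds no other tissue to compare, so these levels cannot check the tissue.

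Wounding changed transcripts of 7019 of the 13726 genes tested, or 51.1%, by edgeR's quasi-likelihood test at an adjusted p under 0.05. Of these, 3919 (28.6%) rose and 3100 (22.6%) fell. Rises were larger than falls: 1814 genes rose at least 2-fold (13.2%) and 416 fell at least 2-fold (3.03%), 843 rose at least 4-fold (6.14% of genes tested) and 49 fell that much (0.357%), and 228 rose at least 16-fold (1.66%) while 3 fell that far (0.0219%). Of the 228 genes, 125 had more than 3 counts over the mock group, 54 had none there, and 85 reached a mean of at least 10 CPM in the wounded plants. The 3 wounded values lay above the 3 mock values in 4424 genes (32.2%) and below them in 3751 (27.3%), and 6869 of the genes called did not overlap between groups. The tissue holds several cell types, and fewer cells of a type and less RNA per cell cannot be told apart. The median log2 fold change over all tested genes was 0.021. Upper-quartile scaling, in place of TMM, moved that median to -0.12 and made 3180 genes higher and 4595 lower, so that 40.9% of the calls were rises instead of 55.8%. The balance of small rises and falls therefore depends on the scaling, and the lists below are read beside the shares of 28.6% higher and 22.6% lower over all genes. List counts given under upper-quartile scaling have another background. They are to be read beside 3180 higher and 4595 lower of 13726 genes.

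**Figure D1:**
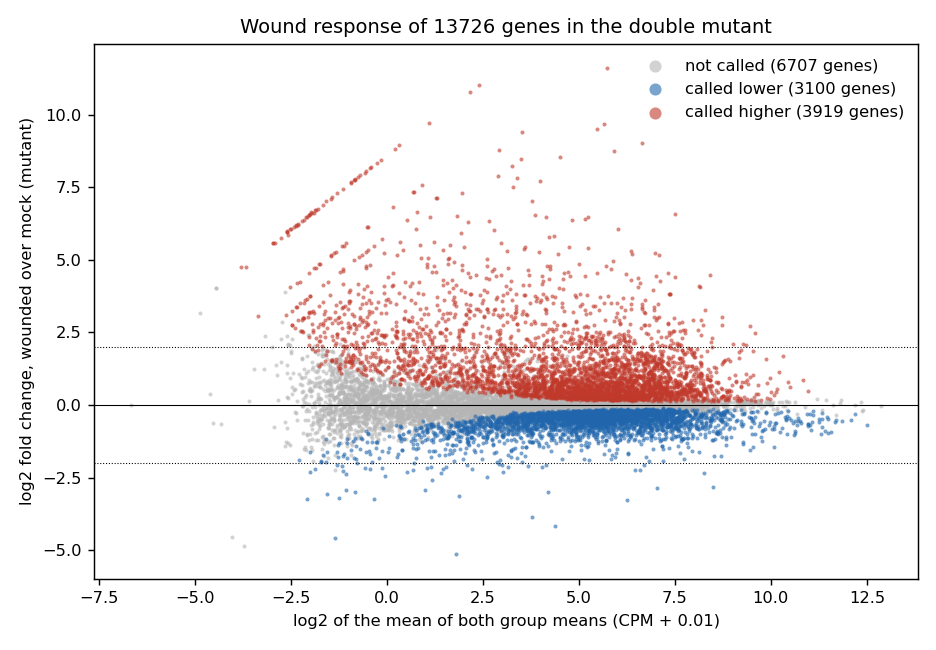
The log2 fold change of each of 13726 genes in the mutant, wounded over mock, is plotted against the log2 of its mean level in CPM (0.01 added). Red and blue points were called higher (3919) and lower (3100), dotted lines mark 4-fold changes, and rises reach far beyond falls. Points in a slanting line at the left are genes with no count in the mock group, whose fold is not measurable.

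Enzymes of oxylipin synthesis rose in the wounded mutant more often than they fell. Of 17 tested lipoxygenase and CYP74 genes, 9 rose, 3 fell and 5 did not pass the test, with a median log2 fold change of 0.99. Under upper-quartile scaling 7 rose and 3 fell, and with 1 mutant library left out 7 to 9 rose and 2 to 4 fell. Summed over the list, transcripts came to 1138, 1258 and 1219 CPM in the mock libraries and 2572, 2562 and 3022 CPM in the wounded ones. The list's median was 1.45 without mock library 1 and 0.64 without mock library 2, and it was 0.63 without both unnumbered wounded libraries.

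Lipoxygenases oxygenate polyunsaturated fatty acids. MpLOX1 (Mp2g00660) had 9.19, 21.9 and 10.4 CPM in the mock libraries and 223, 326 and 240.1 CPM in the wounded ones, a log2 fold change of 4.27 ± 0.31 (SE, adjusted p = 1.34e-07, edgeR). The wounded libraries all lay far above the highest mock library, number 2. MpLOX2 (Mp2g23380) went from 180.1, 201 and 204 CPM in mock to 757, 787 and 966 CPM after wounding, a log2 fold change of 2.10 ± 0.11 (SE, adjusted p = 7.19e-09). MpLOX10 (Mp8g09050) went from 100.2, 124 and 132 to 667, 473 and 632 CPM, with library A the lowest of the wounded values and still far above every mock value. MpLOX4 (Mp5g21680) went from 8.61, 5.65 and 6.65 to 69.5, 59.8 and 96.6 CPM (3.42 on the log2 scale) and MpLOX8 (Mp2g12220) from 2.51, 1.80 and 2.16 to 14.7, 16.1 and 23 CPM (3.04). Neither overlapped between the groups. MpLOX6 (Mp2g12180) stayed low, at 0.425, 0.158 and 0.0832 CPM in mock and 2.73, 2.17 and 3.66 CPM after wounding, and its log2 fold change of 3.61 became 4.56 without mock library 1, its highest mock value.

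Other lipoxygenases went the other way or did not pass. MpLOX14 (Mp8g12930) fell from 461, 521 and 494 CPM to 210.2, 222 and 202 CPM, a log2 fold change of -1.22 ± 0.098 (SE, adjusted p = 3.76e-07, edgeR). The groups were well apart, with little spread inside either. MpLOX16 (Mp2g16000) fell from 19.7, 42.3 and 23.4 to 8.79, 5.96 and 5.35 CPM. MpLOX3 and MpLOX5 were called higher by narrow margins (log2 fold changes 0.99 and 0.99, adjusted p = 0.0392 and 0.0325). Both calls ended when any of several single libraries was left out, with adjusted p up to 0.122 for MpLOX3 and 0.123 for MpLOX5. Upper-quartile scaling also ended both (adjusted p = 0.0676 and 0.0548, edgeR). MpLOX7, MpLOX9, MpLOX11, MpLOX12 and MpLOX13 did not pass, with log2 fold changes from -0.78 to 0.14.

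CYP74 enzymes, a P450 family that holds allene oxide synthases, turn lipoxygenase products into jasmonate precursors or into other oxylipins. The 2 tested members moved apart. MpCYP74N2 (Mp5g16260) had 237, 233 and 216 CPM in mock and 522, 577 and 745 CPM in wounded libraries, a log2 fold change of 1.43 ± 0.12 (SE, adjusted p = 5.32e-07, edgeR). MpCYP74N1 (Mp3g21350) had 64.5, 81.3 and 89 CPM in mock and 54.5, 49.3 and 66.3 CPM in wounded libraries (-0.46, adjusted p = 0.0101), and these groups overlapped. Its call ended without mock library 3 (adjusted p = 0.0504).

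All 6 genes of jasmonate signalling passed the test, 4 higher and 2 lower. MpJAZ (Mp6g06230), the repressor, had 26.3, 26.9 and 25.5 CPM in mock and 104, 113 and 144 CPM after wounding, a log2 fold change of 2.20 ± 0.12 (SE, adjusted p = 1.09e-08, edgeR). The mock values were nearly equal and the lowest wounded value lay far above them. MpCYP94-like (Mp2g10330) and MpCYP94L1 (Mp5g04140), of a P450 family that oxidises jasmonoyl-isoleucine in Arabidopsis, rose by 3.83 and 2.25 on the log2 scale. MpCYP94L1 had 6.95, 6.60 and 6.98 CPM in mock and 31.2, 31.2 and 35.5 CPM in wounded libraries. MpNINJA, the adaptor that joins JAZ to a co-repressor, rose slightly (0.26, adjusted p = 0.00102), a call not made under upper-quartile scaling. The receptor MpCOI1 (Mp2g26590) fell from 101, 105 and 96.5 to 69.9, 71.5 and 74 CPM (-0.49, adjusted p = 6.87e-06), and the co-repressor MpTPL from 169.6, 173 and 169.6 to 118, 107 and 112 CPM (-0.60).

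**Figure D2:**
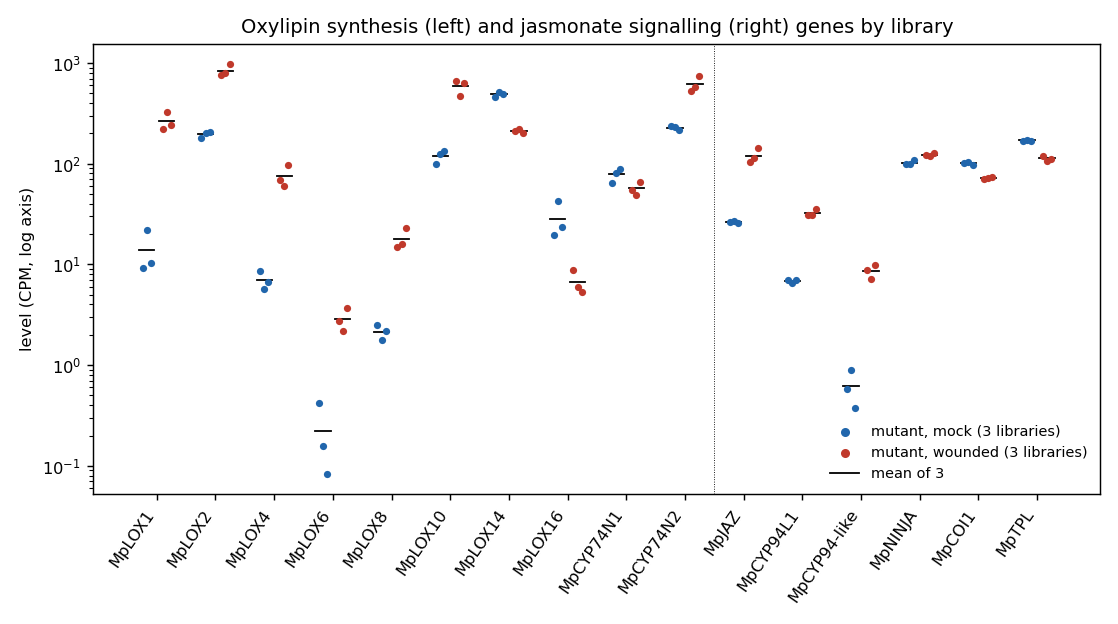
Levels in CPM (log axis) of 10 oxylipin synthesis genes, left of the dotted line, and 6 jasmonate signalling genes, right of it, in each mutant library. Blue points are the 3 mock and red points the 3 wounded libraries, and short lines are group means. MpLOX14, MpLOX16, MpCOI1 and MpTPL lie lower after wounding, MpCYP74N1 overlaps, and the others lie higher.

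Fatty acid desaturases as a whole moved little. Of 14 tested genes, 3 rose (5 without mock library 1), 3 fell and 8 did not pass, with a median log2 fold change of 0.15, and the summed level was 1898, 1999 and 1828 CPM in the mock libraries and 1951, 2062 and 1977 CPM in the wounded ones, so the groups overlapped. MpFAD4 had 38.1, 35.6 and 36 CPM in mock and 69.4, 62.3 and 88.9 CPM after wounding (1.01 ± 0.11, SE, adjusted p = 4.38e-06, edgeR). MpDES5 rose by 0.49 on the log2 scale (adjusted p = 8.13e-06), and MpDES6 fell by 1.01 (adjusted p = 2.41e-05), and its groups did not overlap. MpFAD9 and MpFAD1 also fell, with log2 fold changes of -0.61 and -0.53. MpFAD8 was called higher (0.61, adjusted p = 0.0471), but its groups overlapped and the call ended without any of mock libraries 2 and 3 or the 3 wounded libraries, with adjusted p from 0.0777 to 0.179. MpFAD3 and MpFAD5 did not pass, at -0.004 and 0.17.

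Of 26 tested genes of lipid synthesis and transfer, 13 rose and 2 fell, against 9 and 4 under upper-quartile scaling. MpPLD1 (Mp2g23410), a phospholipase D, which cuts head groups from membrane lipids, went from 4.98, 4.86 and 3.28 CPM to 23.9, 34.9 and 32 CPM (2.79 ± 0.17, SE, adjusted p = 3.88e-08, edgeR). The lipid transfer proteins MpLTP-like68 and MpLTP-like65 rose by 1.38 and 1.26. MpSQD, of sulfolipid synthesis, fell from 61.8, 65.4 and 77.5 to 38.1, 35.6 and 32.2 CPM.

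Every tested gene of the WRKY family, transcription factors tied to defence in flowering plants, rose: 13 of 13, 11 of them at least 2-fold, with a median of 2.17. DESeq2 called no WRKY gene lower either. The summed level was 902, 1147 and 1079.6 CPM in the mock libraries and 2520.5, 2402 and 2792 CPM in the wounded ones. MpWRKY11 (Mp1g24950) had 643, 829 and 786 CPM in mock and 1612, 1534 and 1766 CPM after wounding, a log2 fold change of 1.12 ± 0.12 (SE, adjusted p = 4.45e-06, edgeR). MpWRKY10 rose further, from 13.1, 17.7 and 16.9 to 192, 149.6 and 240.3 CPM (3.62), with its lowest wounded value in library A. MpWRKY3 and MpWRKY7 rose from low mock levels, by 3.82 (4.59 without mock library 2) and 3.63. Leaving out mock library 1, wounded library A or wounded library B ended 1 of the 13 calls each.

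AP2/ERF factors, the family of ethylene response factors, were mixed: 10 of 19 rose, 6 fell (3 without wounded library B) and 3 did not pass. The rises included very large ones. MpERF21 (Mp5g22160) had 0.116, 0.739 and 0.0832 CPM in the mock libraries and 98.9, 125 and 139 CPM in the wounded ones (8.74 ± 0.33, SE, adjusted p = 8.60e-10, edgeR), and its fold rose to 10.17 on the log2 scale without mock library 2, its highest mock value. MpERF9 (Mp4g17430) had 0.155, 0.106 and 0.0832 CPM and then 46.3, 45.5 and 44.3 CPM, with little spread among the wounded values (8.55 ± 0.17, adjusted p = 6.41e-12). MpERF15 went from 4.64, 6.49 and 5.70 to 43, 56.4 and 78.4 CPM. Among those that fell, MpAP2L1 went from 224, 230.1 and 207 to 183, 153 and 161 CPM, and MpERF17 (-0.75) was not called without mock library 3, wounded library 1 or wounded library B (adjusted p from 0.0674 to 0.107).

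The bHLH family held the largest fitted rise among the named genes, while as a list it was split, with 13 of 37 higher, 10 lower and 14 not called. MpBHLH51 (Mp8g06230) had 0, 0.0528 and 0.0416 CPM in mock and 84.2, 110.1 and 125 CPM after wounding. It had 2 counts over the mock group against 8015 over the wounded group, a ratio of 3653 with a 95% counting interval of 1011 to 30165. MpBHLH4 (Mp2g00930) went from 0.155, 0.106 and 0.0832 CPM to 70.5, 102 and 130.4 CPM (9.70 ± 0.35, SE, adjusted p = 7.41e-10, edgeR). In both, every wounded value lay far above every mock value. MpBHLH4 lies in a run of 5 neighbouring genes with MpBHLH3 and MpBHLH2, with genes without a symbol between them. MpBHLH3 went from 5.72, 8.71 and 7.61 to 34.6, 42.9 and 46.6 CPM. MpBHLH2 went from 9.27, 7.23 and 6.61 to 54.6, 70.5 and 85.9 CPM. Of the falls, MpBHLH15 went from 291, 346 and 305 to 146, 152 and 135 CPM (-1.12).

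Of 25 NAC, bZIP and heat shock factors, 17 rose and 4 fell. Members of the NAC family rose in 7 of 8 cases, with MpNAC3 going from 224, 231 and 234 to 601, 595 and 729 CPM (1.48 ± 0.083, SE, adjusted p = 1.59e-08, edgeR) and MpNAC4 from 95.1, 112 and 107 to 319, 404 and 405 CPM. No NAC gene fell, at an unadjusted p under 0.05 or by DESeq2. MpHSF1, a heat shock factor, fell by 0.61 (adjusted p = 8.47e-05), and MpABI5A, a bZIP factor named after an abscisic acid response gene of Arabidopsis, by 0.57. MYB factors were close to the background, with 11 of 44 higher and 9 lower (15 lower under upper-quartile scaling), and MpRR-MYB2 fell most, from 85.6, 83.5 and 78 to 31.6, 27.9 and 24.7 CPM (-1.55).

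Several families of phenolic metabolism held members with large rises. Phenylalanine ammonia-lyase (PAL) makes the first phenylpropanoid, and type III polyketide synthases (PKS/CHS, which include chalcone synthases) extend it. Of 10 PAL genes 6 rose and 1 fell, and of 24 PKS/CHS genes 10 rose, all at least 2-fold, and 1 fell. The single PAL fall was not called without any of 5 mutant libraries (all but mock library 2), and the PKS/CHS falls became 2 without mock library 2 or wounded library B and 3 under upper-quartile scaling. Over the whole list of 78 phenylpropanoid and polyketide enzymes 28 rose, 24 at least 2-fold, and 18 fell, 1 at least 2-fold. The median of that list was 0.052 and turned to -0.085 under upper-quartile scaling. The summed level of the list was 3254, 3280.2 and 3186 CPM in the mock libraries and 4292, 4698 and 4798 CPM in the wounded ones.

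A stretch of chromosome 4 held 6 of these genes in unbroken order among the genes matched to the reference table, and each rose at least 4-fold. They are MpPAL7, MpPKS/CHS11, MpPAL6, MpPKS/CHS12, MpPAL-like2 and MpPKS/CHS13, with log2 fold changes of 3.09 to 5.44. MpPAL7 (Mp4g14110) had 0.116, 1.32 and 0.333 CPM in mock and 15.6, 28.5 and 26.3 CPM after wounding (5.44 ± 0.49, SE, adjusted p = 1.10e-06, edgeR), a value of 6.70 without mock library 2. MpPKS/CHS13 (Mp4g14180) had 0.579, 4.65 and 1.54 CPM and then 38.2, 53.1 and 59.6 CPM. In both, mock library 2 was the highest mock value and mock library 1 the lowest, and all wounded values lay above. These neighbours are alike in family, so reads may be shared between them in counting. Outside the stretch, MpPKS/CHS21 (Mp7g14930) rose most, from 0.657, 2.80 and 2.37 CPM to 103, 143 and 136 CPM (6.08 ± 0.30, adjusted p = 5.26e-09), and MpPKS/CHS18 went from 2.47, 5.70 and 3.04 to 73.5, 128 and 103 CPM. Mp4CL2 (Mp1g05060), a 4-coumarate CoA ligase that activates the acids PAL leads to, went from 129, 123 and 123 to 491, 546 and 669 CPM (2.18). MpLAR-like5 and MpCOMT fell, with log2 fold changes of -0.92 and -0.70.

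Among proteins that couple or oxidise phenolics, single members rose strongly. Dirigent proteins (DIR) guide the coupling of phenolic radicals: 18 of 46 rose (39.1%), 16 at least 2-fold, and 3 fell. Polyphenol oxidases (PPO) oxidise phenols to quinones: 10 of 37 rose (27.0%), each at least 2-fold, 7 fell and 20 did not pass. The share of PPO rises was close to the 28.6% over all genes, of which 13.2% rose at least 2-fold. MpPPO42 (Mp5g19980) showed the largest gain in CPM among genes with a symbol (a measure that also grows with transcript length), from 639, 639 and 542 CPM to 1895, 1814 and 2101 CPM (1.67 ± 0.10, SE, adjusted p = 3.25e-08, edgeR). MpPPO22 went from 68.5, 54.5 and 52 to 515, 558 and 615 CPM (3.27). MpDIR17, at 427, 519.8 and 508 CPM in mock, reached 975, 878 and 1120.0 CPM, whereas MpDIR39 (Mp5g16510) started at 0.0773, 0.106 and 0.166 CPM and reached 64.5, 98 and 102 CPM (9.51 ± 0.35, adjusted p = 7.74e-10). No dirigent gene fell as much as 2-fold, and MpDIR24 went from 33.8, 37.5 and 29.7 to 18.9, 20.4 and 19.5 CPM (-0.78). Of the PPO genes that fell, 1 did so at least 2-fold, MpPPO70, which stayed under 0.5 CPM in every library and is named after its values were seen. The 7 PPO falls became 4 without mock library 3, wounded library 1 or wounded library A, 3 without wounded library B, and 12 under upper-quartile scaling.

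Class III peroxidases, secreted enzymes that oxidise phenolics with hydrogen peroxide, mostly did not pass the test. Of 111 tested, 13 rose (11.7%), 13 fell (11.7%) and 85 did not pass, with a median of -0.29. Under upper-quartile scaling 12 rose and 25 fell. The falls numbered 24 without mock library 2, and 8 without mock library 1 or wounded library A. The family's sum was 1618, 1496 and 1514 CPM in the mock libraries and 2728, 2855 and 2753 CPM in the wounded ones. MpPOD164 (Mp8g01700) made up a large share of it, with 271, 273 and 205 CPM and then 844, 1086 and 892 CPM (1.91 ± 0.14, SE, adjusted p = 1.77e-07, edgeR). MpPOD161 and MpPOD89 rose from low levels, by 5.41 and 4.54. MpPOD149 and MpPOD7 fell, by 1.09 and 0.87 on the log2 scale.

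**Figure D3:**
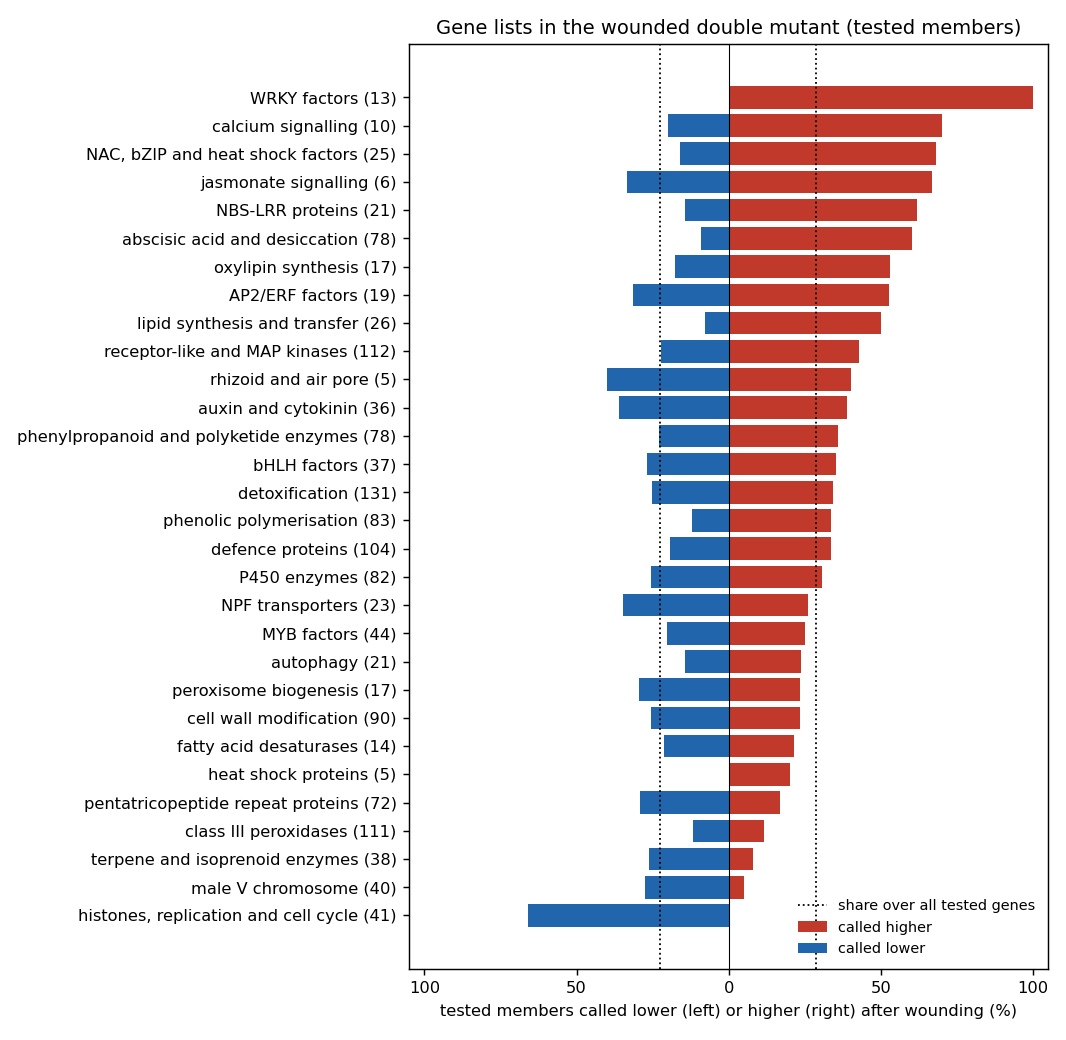
For each gene list with at least 5 tested members (number in brackets), the red bar gives the percentage called higher and the blue bar the percentage called lower in the wounded mutant. Dotted lines mark the shares over all tested genes, 28.6% higher and 22.6% lower. WRKY factors reach 100% higher, and the list of histones, replication and cell cycle genes has no member called higher.

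Defence proteins, the pathogenesis-related (PR), cupin and glycoside hydrolase (GH) 17, 18 and 19 families, rose in 35 of 104 cases (33.7%) and fell in 20 (19.2%). These shares were not far from those over all genes, and under upper-quartile scaling 28 rose and 25 fell. Cupins rose in 8 of 37 cases and fell in 9, GH17 genes rose in 5 of 23 and fell in 8, and GH18 genes rose in 3 of 8. Among PR genes alone 12 of 23 rose and 2 fell (1 without mock library 1 or 3, or wounded library A or B), and of the GH19 chitinase family 7 of 13 rose and 1 fell (0 without mock library 1). MpPR6b went from 0.695, 3.01 and 0.832 CPM to 23.2, 37.5 and 33 CPM (4.45, 5.35 without mock library 2). MpPR15b, MpPR15c and MpPR15d lie side by side on chromosome 2. MpPR15c had 3 counts over the mock group and 5.21, 10.3 and 7.72 CPM after wounding, a ratio of 173 with a 95% counting interval of 58.7 to 839, and MpPR15b had 2 counts and a ratio of 160.0 (44.0 to 1326). MpGH18.1, of a chitinase family, went from 1.78, 2.43 and 2.37 to 37, 24.5 and 32.2 CPM. The cupins MpCupin71 and MpCupin64 fell by 1.32 and 1.20 on the log2 scale, while MpCupin83, at 848, 868 and 752 CPM in mock, fell by 0.43, a call that ended without any of 5 of the 6 mutant libraries (adjusted p from 0.0698 to 0.0927).

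Genes of perception and signalling also moved. NBS-LRR proteins are intracellular immune receptors, and 13 of 21 rose while 3 fell, with a median of 0.68. MpNBS-LRR12 went from 25.1, 31.3 and 32.6 to 92.9, 84.1 and 93.1 CPM (1.60 ± 0.10, SE, adjusted p = 4.78e-08, edgeR). MpNBS-LRR8 fell from 73.2, 66.5 and 79.6 to 48.6, 42.9 and 51.7 CPM. Of 112 receptor-like and MAP kinase genes 48 rose and 25 fell. The lectin kinase MpRLK-Pelle_L-LEC4 rose most, from 0.464, 0.528 and 0.291 to 14.8, 17.7 and 18.8 CPM, and MpRLK-Pelle_WAK_LRK10L-3 fell most, from 98.1, 96.3 and 89.8 to 33, 28.5 and 27.8 CPM. MAPKKK genes, which start MAP kinase cascades, rose in 14 of 23 cases (9 under upper-quartile scaling) and fell in 4.

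Of 10 calcium signalling genes, 7 rose and 2 fell, which became 4 and 2 under upper-quartile scaling. MpCML42 (Mp6g18000), a calmodulin-like calcium sensor, went from 43.6, 43.7 and 52.7 to 225, 212 and 273 CPM (2.34 ± 0.13, SE, adjusted p = 1.86e-08, edgeR). MpTPC1, a calcium-permeable channel of the vacuole, went from 220.4, 244 and 248 to 531, 496 and 524 CPM. MpCIPK-B and MpCBL-B, a kinase and the calcium sensor type that binds such kinases, fell by 0.56 and 0.36.

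Abscisic acid and desiccation genes rose in 47 of 78 cases and fell in 7, with a median of 1.68, and the LEA genes made up 36 of these rises, 33 of them at least 2-fold. The median log2 CPM of the 61 tested LEA genes was 2.96 in mock library 1, 0.69 in mock library 2 and -0.27 in mock library 3, against 3.32, 4.31 and 3.58 in the wounded ones. In the Tak-1 mock libraries the same median was 3.93, 4.81 and 3.80, and in wounded Tak-1 4.93, 5.03 and 5.11. Unwounded mutant plants thus differed widely in LEA transcripts, with library 1 near the wounded level. Without mock library 1, 47 LEA genes rose and 6 fell, with a median of 3.75, and the whole list stood at 58 higher and 9 lower with a median of 3.50. Without wounded library A, the highest of the wounded libraries, 29 LEA genes rose and 5 fell, with a median of 1.26. The state of the plants behind mock library 1 is not recorded in the labels, and its part in these counts was not tested beyond leaving it out.

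**Figure D4:**
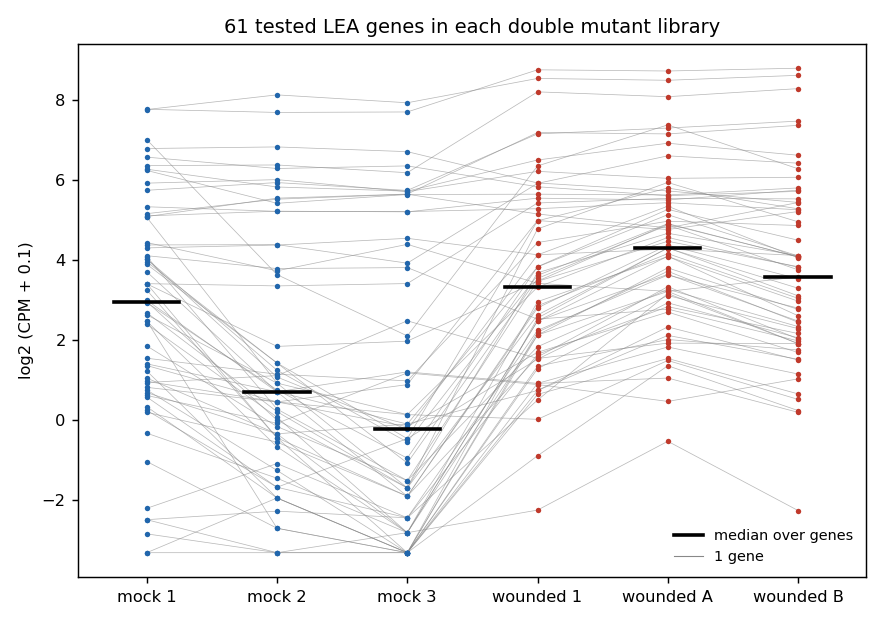
Each point is 1 of 61 tested LEA genes in a mutant library, as log2 of CPM plus 0.1, grey lines join the same gene, and black bars are medians over genes. Mock library 1 lies between the other mock libraries and the wounded ones.

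Single members differed in which mock library was highest. MpLEA-like42 (Mp6g03090) had 0.116, 0.370 and 0.0832 CPM in mock and 4.63, 12.3 and 6.86 CPM after wounding (5.44, 6.22 without mock library 2). MpLEA-like35 had 0.695, 0.264 and 0.0416 CPM and then 4.27, 13.9 and 6.72 CPM (4.54, 5.81 without mock library 1), and library A was the highest in both. MpLEA-like4 had even mock values of 2.82, 2.11 and 1.87 CPM and reached 21.6, 31.4 and 29.1 CPM (3.58 ± 0.27, SE, adjusted p = 1.79e-07, edgeR). Several LEA genes stand next to each other on chromosome 6 and rose at least 4-fold together, MpLEAL3 with MpLEA-like34 to MpLEA-like36 and MpLEA-like42 to MpLEA-like45. Not all members followed: MpLEA-like56 fell from 111, 114 and 105 to 61, 53.1 and 43.5 CPM. MpCYP707A (Mp2g25940), an abscisic acid hydroxylase that breaks the hormone down, went from 0.734, 1.27 and 1.54 to 46.6, 29.7 and 52.3 CPM (5.20 ± 0.34, adjusted p = 6.46e-08). MpABA1, named after an enzyme of abscisic acid synthesis in Arabidopsis, fell from 210.0, 255 and 255 to 79.6, 83.3 and 97.3 CPM (-1.47).

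Detoxification genes, glutathione transferases, glycosyltransferases and transporters, had 45 of 131 members higher and 33 lower, and 43 and 44 under upper-quartile scaling. The transporters MpMATE15 and MpABCB6 rose by 3.72 and 3.38, and MpABCB6 went from 16.1, 18.3 and 18 to 149, 159 and 237 CPM. MpUGT36 fell from 8.65, 7.50 and 9.85 to 2.81, 1.92 and 2.41 CPM. P450 enzymes other than those above were near the background too, with 25 of 82 higher and 21 lower, but held extremes of both signs. MpCYP815A1 (Mp1g15990) went from 5.60, 2.53 and 2.87 CPM to 291, 349.7 and 447 CPM (6.59 ± 0.31, SE, adjusted p = 3.86e-09, edgeR), all wounded values being far above mock. MpCYP78-like1 (Mp1g14150) showed the largest fall among genes with a symbol that were named by fold, from 48, 22.5 and 28.1 CPM to 5.03, 4.78 and 2.55 CPM (-3.01 ± 0.38, adjusted p = 2.32e-05).

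Of 90 cell wall genes 21 rose and 23 fell, and the falls became 14 without mock library 1 or wounded library B and 15 without wounded library A. Expansins, which loosen walls, fell in 10 of 26 cases, 5 at least 2-fold, and none rose, also at an unadjusted p under 0.05 or by DESeq2. The 10 falls became 6 without mock library 1 or 2, 5 without wounded library 1 and 4 without wounded library B. MpExpansin6 went from 238, 328 and 276 to 118, 106 and 89.1 CPM (-1.42 ± 0.14, SE, adjusted p = 2.06e-06, edgeR). GH16 enzymes, which include xyloglucan-modifying enzymes, rose in 5 of 24 cases and fell in 7. MpGH16.7 (Mp2g17810) went from 11.2, 10.3 and 12.1 to 225, 238 and 275 CPM (4.45 ± 0.14, adjusted p = 4.17e-10), and MpGH16.8 from 33.2, 28.2 and 27.8 to 246, 220.4 and 265 CPM. Pectin methylesterases (CE8) rose in 4 of 10 cases, with MpCE8.8 going from 0.464, 0.475 and 0.707 to 21.8, 23.5 and 24 CPM and MpCE8.5 from 944, 982 and 845 to 1349.7, 1365 and 1375 CPM. MpPL1.3, of a pectate lyase family, fell from 106, 141 and 117 to 56.3, 52.7 and 48.9 CPM.

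Auxin and cytokinin genes were mixed, with 14 of 36 higher and 13 lower. MpGH3A (Mp6g07600), of a family that conjugates hormones to amino acids, went from 34.6, 28.9 and 30.8 to 114, 132 and 169 CPM (2.14 ± 0.13, SE, adjusted p = 3.86e-08, edgeR). Of the SAUR genes, small auxin-upregulated RNAs, MpSAUR1 and MpSAUR3 fell, from 288, 299 and 272 to 133, 119 and 110.1 CPM and from 81.6, 97.8 and 89.4 to 30.9, 17.9 and 25.1 CPM. MpSAUR7 rose from 2.12, 0.158 and 0.125 to 5.76, 9.16 and 9.16 CPM, a log2 fold change of 3.22 that became 5.79 without mock library 1. MpCKX1, which breaks down cytokinin, fell from 29.4, 25.3 and 23.9 to 13.9, 12 and 10.9 CPM.

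Genes of cell division and of chlorophyll synthesis fell. Of 41 histone, replication and cell cycle genes 27 fell, 13 at least 2-fold, 14 did not pass and none rose, also at an unadjusted p under 0.05 or by DESeq2, and the median was -0.61. The MCM genes, which encode the replicative helicase, fell in 7 of 10 cases, 6 at least 2-fold. MpMCM2 (Mp3g00130) went from 15.6, 12.8 and 12.8 to 3.94, 4.43 and 4.24 CPM (-1.71 ± 0.21, SE, adjusted p = 1.97e-05, edgeR) and MpMCM6 from 9.0, 6.86 and 7.07 to 2.11, 1.53 and 1.29 CPM. MpCYCD_1, a D-type cyclin, went from 14.8, 12.5 and 13.4 to 3.10, 2.12 and 2.98 CPM (-2.30). All 4 tested genes of chlorophyll synthesis fell, and DESeq2 called none of them higher. MpGUN5 (Mp8g10280), a subunit of magnesium chelatase, went from 493, 522 and 494 to 220.0, 221 and 213 CPM (-1.21 ± 0.085, adjusted p = 1.15e-07), MpCHLD, another subunit, from 152, 169 and 166 to 77.8, 82.3 and 73.9 CPM, and MpGUN4, which activates the enzyme, from 195, 227 and 206 to 128, 131 and 119 CPM. In each of these genes the 3 wounded values lay close together and below all mock values.

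Other large falls among genes with a symbol had no list in common. MpMDHAR3 (Mp7g06510), a monodehydroascorbate reductase that recycles the antioxidant ascorbate, went from 134, 150.1 and 197 to 30.6, 34.5 and 37.8 CPM (-2.22 ± 0.12, SE, adjusted p = 1.40e-08, edgeR). MpPRR, a pseudo-response regulator of the circadian clock family, went from 269.5, 337 and 293 to 101, 87.3 and 94.4 CPM (-1.67). The largest loss in CPM was that of MpGRP7, which went from 1748, 1874 and 1887 to 939, 863 and 982 CPM (-0.98). MpFBA2, MpPIP2 and MpCAT2 lost much in CPM but little in fold (-0.27, -0.21 and -0.25). Their calls ended when single libraries were left out, with adjusted p up to 0.108, 0.0696 and 0.132.

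Wounding switched some genes on from no detected transcript. In 24 genes all 3 mock libraries had 0 counts and each wounded library had at least 10, and no gene showed the reverse. Against a floor of 3 counts over the mock group, MpPPO31 rose at least 237-fold, to 6.34, 13.1 and 12.2 CPM, the highest of the 24. MpGH17.6 rose at least 53.8-fold and the dirigent genes MpDIR65 and MpDIR61 at least 33.1-fold and 23.7-fold. MpPIWIa and MpLEA-like44 rose at least 41.9-fold and 28.0-fold, and the other 18 genes have no symbol. Among these, Mp6g06240 and Mp6g06250 lie next to MpJAZ in gene order, reached 0.438, 0.492 and 0.503 CPM and 0.766, 0.886 and 0.755 CPM, and were chosen here for that place after their values were seen. Of the IDs without a symbol that were named by fold, Mp5g21760 rose from 0.657, 0.211 and 0.208 to 168, 187 and 247 CPM, and Mp1g07670 fell from 38.6, 31 and 48.4 to 1.42, 2.02 and 3.05 CPM. Mp5g07480 had 2 counts over the mock group and 19, 25.1 and 24.8 CPM after wounding, a ratio of 784 (95% counting interval 217 to 6477).

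Some genes that rose at least 4-fold stood side by side. The order used is that of the reference table, over the IDs matched to it. An untested gene ended a run. IDs without a match, tested or not, were passed over, so neighbours need not be adjacent. In that order 29 runs of at least 3 neighbours rose at least 4-fold together, holding 102 of the 843 such genes. Another 3 runs, holding 10 genes, fell at least 2-fold together. The longest has 7 genes on chromosome 5, from Mp5g07480 to Mp5g07550, with log2 fold changes of 2.17 to 9.39, and none of its members has a symbol. Besides the PAL and PKS/CHS stretch and the bHLH stretch, named runs include MpPPO2 with MpPPO3 and MpGST29 with MpGST30, each with 1 unnamed neighbour. MpPPO2 went from 0.811, 1.0 and 0.582 to 22.4, 39.3 and 30.1 CPM and MpPPO3 from 0.888, 1.16 and 0.915 to 15.1, 33.6 and 25 CPM. By chromosome, the share of genes that rose at least 4-fold was between 4.87% (chromosome 1) and 7.49% (chromosome 5) on the 8 autosomes. On the male V chromosome 2 of 40 tested genes rose, 11 fell, and no change reached 4-fold. Under upper-quartile scaling 1 rose and 20 fell, and 6 fell without wounded library A.

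The wound response of the mutant was then set against that of Tak-1 by testing the difference of the responses. Across 13726 genes the log2 fold changes of both genotypes, which share no library, were related with a Pearson r of 0.893 and a Spearman rho of 0.849, a description over genes that are not independent. The difference was called in 451 genes (3.29%), of which the response was lower in the mutant, that is, a smaller rise or a larger fall, in 356 (2.59%) and higher in 95 (0.692%). Upper-quartile scaling gave 457, with 293 lower and 164 higher. Among the 843 genes that rose at least 4-fold in the mutant, 54 had a lower response than in Tak-1, 8 a higher one, and 781 were not called. Of the 843, 788 were also called higher in Tak-1. There 54.9% of all tested genes were called, a share that counts both directions. The 843 genes were chosen by their mutant response, which enters the difference, so genes whose rise was lost in the mutant are not among them. These counts therefore do not measure how much of the Tak-1 response was kept. Without wounded mutant library 1 the number of differences called was 261, without Tak-1 mock library 1 it was 296 and without Tak-1 mock library 3 it was 290.

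**Figure D5:**
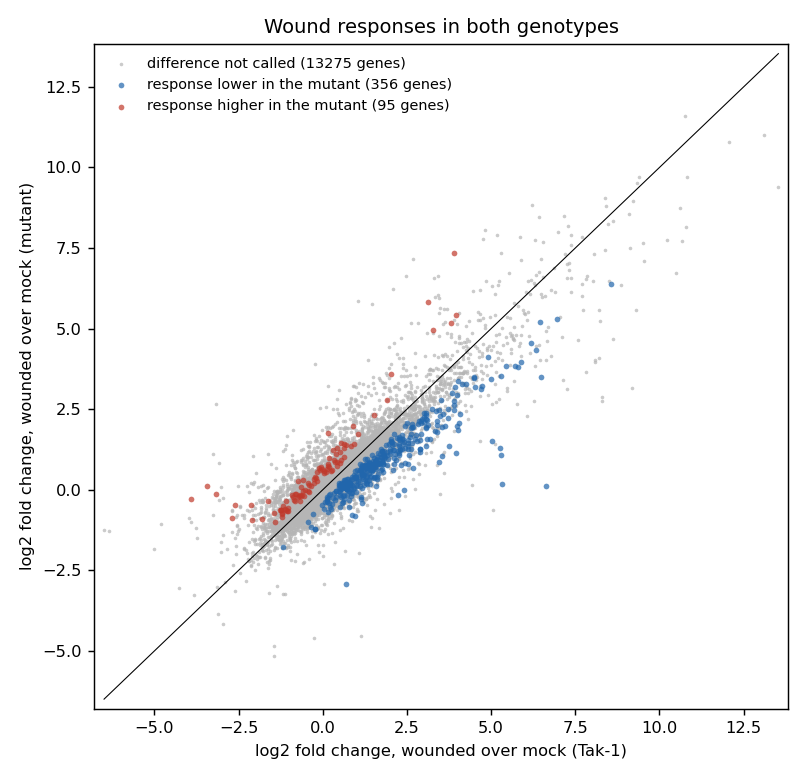
The log2 fold change on wounding in the mutant is plotted against that in Tak-1 for 13726 genes, with the line of equal response. Blue points (356) had a lower response in the mutant and red points (95) a higher one by the test of the difference, and the blue points lie mostly among genes that rose.

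The differences touched the oxylipin route on both sides. In synthesis, MpLOX2 rose by 2.10 in the mutant and 3.02 in Tak-1 on the log2 scale, a difference of -0.92 ± 0.15 (SE, adjusted p = 0.00408, edgeR). MpCYP74N2 differed by -0.96 (adjusted p = 0.00681). MpLOX14 fell by 1.22 in the mutant and by 0.22 in Tak-1, a difference of -1.0 ± 0.14 (adjusted p = 0.00183). In signalling, MpJAZ differed by -0.74 (adjusted p = 0.0257) and MpCYP94-like by -1.62 (adjusted p = 0.0257). The MpJAZ call ended when any of 4 libraries was dropped (adjusted p from 0.0579 to 0.0720), namely Tak-1 mock 1, mutant mock 2, and wounded mutant 1 and A. The MpCYP94-like call ended when Tak-1 mock 3, mutant mock 1, mutant mock 2 or wounded mutant 1 was dropped (0.0522 to 0.0912). MpLOX1, MpLOX10, MpCOI1 and MpTPL did not differ by this test, with differences of -0.014, -0.13, 0.093 and 0.019. None of the 17 oxylipin synthesis genes had a higher response in the mutant, although 2 did at an unadjusted p under 0.05 (0 by DESeq2).

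Outside that route, the lists differed in how many members were called. Of 131 detoxification genes 14 had a lower response in the mutant and none a higher one (at an unadjusted p under 0.05, 8 did, and 1 by DESeq2). The largest of them, MpGST38 (Mp2g03760), reached 2.33, 3.69 and 3.09 CPM in the wounded mutant against 21.5, 16.4 and 21.1 CPM in wounded Tak-1, from 0.232, 0.211 and 0.333 and 0.308, 0.239 and 0.125 CPM in mock, a difference of -2.98 ± 0.50 (SE, adjusted p = 0.00618, edgeR). MpPPO20 went from 12.4, 9.29 and 11.4 to 55, 45.8 and 67 CPM in the mutant and from 11, 14.1 and 11.6 to 210.4, 198 and 205 CPM in Tak-1 (-1.72, adjusted p = 0.000628). MpGH3A and MpBHLH2 differed by -1.27 and -1.33. No WRKY gene was called in either direction, with 2 lower and 2 higher at an unadjusted p under 0.05, which 15.3% of all tested genes reached, and 1 each by DESeq2. Of the 111 peroxidases 6 had a higher response in the mutant and none a lower one (4 at an unadjusted p under 0.05, 0 by DESeq2). In Tak-1 13 of the 111 rose and 48 fell, with a median of -0.81. In the mutant 13 rose and 13 fell, with a median of -0.29, so a higher response can be a smaller fall. MpPOD156 rose from 33, 32.7 and 26.7 to 69.8, 68.5 and 60.1 CPM in the mutant and went from 35.9, 29.3 and 37.6 to 44.5, 46.8 and 43.7 CPM in Tak-1 (0.71, adjusted p = 0.0211), a call that ended without any of 5 single libraries (adjusted p from 0.0507 to 0.0659): Tak-1 mock 1 and 3, wounded Tak-1 1, and wounded mutant 1 and A.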

How the data were processed

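RNA was sequenced from 12 libraries, of which the 6 of the double mutant are described and the 6 of Tak-1 enter the model. The authors deposited raw counts per gene, with 1 column of whole numbers per library. Trim Galore, HISAT2, HTSeq and edgeR are named per the submitters' processing notes, without versions or settings. The genome build, annotation and strandedness were not given in the sources used here. Reads of a gene and an overlapping or antisense partner can therefore not be told apart, and values of close paralogs are uncertain, since the counting may split or drop their reads.

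The main test was edgeR 4.0.16 in R 4.3.3, with DESeq2 1.42.0 as an alternative. The filterByExpr filter, set by group, left 13726 of 20574 genes. After TMM scaling, group means were estimated by glmQLFit over the 12 libraries together, which leaves 8 residual degrees of freedom, with a common coefficient of biological variation of 0.121. Contrasts were wound against mock in the mutant, and its difference from the same contrast in Tak-1, two-sided. A call is an adjusted p (Benjamini-Hochberg, over the whole table) under 0.05. Every adjusted p is edgeR's unless another tool is named. Log2 fold changes come from the fit, and each SE is the absolute log2 fold change divided by the square root of its F statistic. For a gene without counts in a group, 3 counts over that group were the floor. A gene with 1 to 3 counts has its ratio given with an exact 95% counting interval. Both cover counting error only. Replicates are separate pools of plants per the labels. Within-group library pairs of the mutant differed by 8.76 to 21.4 times the counting variance, so none is the same library sequenced again. Such a spread cannot show whether libraries came from the same pool, since library preparation also adds variance. On simulated counts with known changes, the fit recovered 67.2% of 1.5-fold and 100% of 2-fold and 4-fold changes. It made 5 false calls over 13133 genes fitted. The simulation changed 67, 67 and 66 genes at these folds, each above 5 CPM in the mutant mock. All genes had the same coefficient of variation. In the data 51.1% of genes were called and variation differs by gene, so these rates do not carry over to the data or to genes of few counts.

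Gene IDs were matched to the locus tags of a RefSeq gene table of assembly MpTak2_v7.1, used only for names and gene order. Of 20574 IDs 17641 matched and 3091 have a symbol, and of the tested genes 2538 have one. Lists were built from symbols, and patterns that caught other families were trimmed on the symbols alone. The lists of autophagy, NPF transporter, pentatricopeptide repeat, NBS-LRR and peroxisome biogenesis genes were added from the symbols. Families were also counted by the stem of the symbol where at least 8 members were tested. Named genes are those with the largest log2 fold changes or changes in CPM among called, non-overlapping genes of at least 10 CPM, up to 3 rising and 3 falling members of each list (at least 5 CPM), every oxylipin, jasmonate and desaturase gene, and the largest differences from Tak-1. Genes in runs of neighbours and those at 0 counts in mock are named by those rules. Members and lists were chosen with earlier results of these data known, so no p is given over a list. Alternatives were RLE and upper-quartile scaling, no low-count filter, DESeq2, the mutant libraries alone, each library left out, the unnumbered wounded libraries left out, and a replicate block.

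The labels' replicate numbers are not said to mark a shared batch, and of the wounded mutant libraries only library 1 has a number of its own.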

Additional observations from a re-analysis of the deposited data

Results flagged for a closer look

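The response to wounding differed between the mutant and Tak-1 in 451 genes by the test of the difference itself, and each named gene among them is listed here for that reason. Values are differences of log2 fold changes, mutant minus Tak-1, so that a negative value is a smaller rise or a larger fall in the mutant.

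In oxylipin synthesis and jasmonate signalling the differences were -1.62 for MpCYP94-like, -1.57 for MpLOX4, -1.0 for MpLOX14, -0.96 for MpCYP74N2, -0.92 for MpLOX2, -0.74 for MpJAZ and -0.74 for MpCYP94L1. Among desaturases MpFAD11 stood at -0.73 and MpFAD5 at -0.49. Neither was called in the mutant, at 0.13 and 0.17, beside 0.86 and 0.66 in Tak-1. The calls for MpLOX4, MpCYP94L1 and MpFAD5 ended under 11, 12 and 12 alternatives, those of MpCYP94-like and MpJAZ under 6 and 4, and those of MpLOX14 and MpFAD11 under 1 each.

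In phenolic metabolism the differences were -1.72 for MpPPO20, -1.0 for MpPPO22, -0.89 for Mp4CL2 and -0.81 for MpDIR17. MpSQS1, a squalene synthase, stood at -0.68. Peroxidases went the other way, with 0.71 for MpPOD156 and 1.27 for MpPOD121, calls that ended under 7 and 8 alternatives. Of the other calls here, those of MpDIR17 ended under 2 and MpSQS1 under 1.

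In detoxification, hormone and transport genes the differences were -2.98 for MpGST38, -1.67 for MpUGT35, -1.65 for MpKAOL2, -1.27 for MpGH3A, -1.11 for MpNPF21 and -0.99 for MpCYP823A1. MpPKC2 stood at -2.82, MpGH16.15 at -1.71, the factor MpBHLH2 at -1.33, MpPPR_72 at -0.80, the autophagy gene MpATG18c at -0.52 and MpNOP1 at -0.40. The call of MpNOP1 ended under 8 alternatives, those of MpPKC2 and MpUGT35 under 4 each, that of MpCYP823A1 under 2 and that of MpATG18c under 1. MpKAOL2 fell in the mutant (-0.77) and rose in Tak-1 (0.87). The call of its fall in the mutant ended without mock library 1 or wounded library 1 (adjusted p = 0.0785 and 0.0587, edgeR).

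Higher responses in the mutant were those of MpLEA-like4 (1.56), MpDOXC31 (1.09), MpFRO2 (0.90), MpJAGGED (0.68) and MpNBS-LRR8 (0.64). In Tak-1 the responses of MpFRO2, MpJAGGED and MpNBS-LRR8 were -1.80, -0.81 and -1.26, and in the mutant -0.91, -0.13 (not called) and -0.61. The difference call of MpLEA-like4 ended under 8 alternatives, that of MpDOXC31 under 11, that of MpNBS-LRR8 under 4 and that of MpJAGGED under 1.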

How the results depend on the processing

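Of 7019 genes called in the mutant, 2230 were also changed at least 2-fold. Leaving out 1 mutant library at a time gave 6202 to 6678 calls, and leaving out both unnumbered wounded libraries gave 4667, with a single wounded library assumed to vary like the other groups. A replicate block on those same 10 numbered libraries gave 4104. RLE and upper-quartile scaling, no low-count filter, an adjusted p under 0.01, the mutant libraries alone and DESeq2 stayed within 1.5 times, at 5426 to 7775. The 451 differences from Tak-1 became 261 to 480 with 1 library left out, 805 by DESeq2, 252 without both unnumbered libraries and 219 with the replicate block on those libraries. The block rests on shared numbers alone.

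Of 2886 values of 222 named genes under alternatives, 2737 kept their direction and side of the threshold, 120 lost the call, 9 gained one and 20 changed sign, and 171 genes kept both throughout. The sign changes are those of genes not called. Under upper-quartile scaling they are MpLOX11 (-0.0011), MpFAD6 (-0.0075), MpFAD10 (-0.11) and MpFAD11 (-0.0038). Without mock library 1 they are MpLOX9 (0.15), MpFAD3 (0.0041) and MpFAD10 (-0.045), and without mock library 2 MpLOX11 (-0.027), MpFAD3 (0.020) and MpFAD6 (-0.067). Without wounded library B they are MpLOX11 (-0.039) and MpFAD3 (0.025), and with no low-count filter MpFAD10 (-0.0052). Without both unnumbered libraries they are MpFAD6 (-0.069) and MpFAD11 (-0.0092), and with the replicate block MpLOX12 (0.026), MpFAD2 (-0.048), MpFAD3 (0.013), MpFAD6 (-0.29) and MpFAD13 (-0.0060). With 1 library left out, these log2 fold changes ranged from -0.62 to 0.15 for MpLOX9, -0.039 to 0.32 for MpLOX11, -0.067 to 0.51 for MpFAD6 and -0.045 to 0.11 for MpFAD10. The cause was not tested.

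List medians of bHLH, MYB, phenylpropanoid, detoxification, heat shock, photosynthesis, sperm and autophagy genes changed sign under upper-quartile scaling, to values from -0.10 to -0.030. Taking genes with few counts at their bound moved 1 of 106 medians by more than 0.01. Depth limits genes of a few counts in mock, whose folds are uncertain, and calls rest on 3 libraries a group.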

Other observations

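Of 21 autophagy genes 5 rose and 3 fell (1 without mock library 3 or wounded library B, and 5 under upper-quartile scaling), and MpATG18c, of phagophore growth, went from 14.6, 15.2 and 14.6 to 30.8, 33.3 and 32.8 CPM (1.12 ± 0.067, SE, adjusted p = 2.79e-08, edgeR). Of 17 peroxisome biogenesis genes 4 rose and 5 fell (9 under upper-quartile scaling), none by 2-fold, with MpPEX11a, a peroxisome division protein, at 0.82. Pentatricopeptide repeat proteins, which process organelle RNA, rose in 12 of 72 cases and fell in 21, and under upper-quartile scaling in 7 and 32. Of 38 terpene and isoprenoid enzymes 3 rose and 10 fell, and under upper-quartile scaling 3 and 19. MpSQE, a squalene epoxidase of sterol synthesis, rose from 127, 101 and 96.7 to 246, 229 and 242 CPM, while MpIDS2 fell from 109.9, 118 and 109.8 to 52.5, 55.1 and 48.5 CPM and MpCMK and MpHDR, of the plastid isoprenoid route, stood at -0.84 and -0.67.

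Transporters of the NPF family, which carry nitrate, peptides and hormones in flowering plants, split into 6 of 23 higher and 8 lower (5 lower without mock library 1). MpNPF21 went from 54.8, 49.2 and 66.6 to 129, 146 and 188 CPM and MpNPF31 from 12.5, 10.5 and 8.32 to 4.05, 2.81 and 3.16 CPM. Of 5 genes in a list of rhizoid, air pore and ROP regulator genes 2 rose and 2 fell. MpNOP1 rose by 0.77, and MpKAR, a GEF for the small GTPase ROP, fell from 50.4, 48.9 and 54.5 to 22.6, 27.4 and 24.9 CPM (-1.04). Of 5 heat shock protein genes 1 rose, MpHSP90-3, from 259, 181 and 196 to 352, 361 and 354 CPM, and none fell at an unadjusted p under 0.05 or by DESeq2, while 2 rose without mock library 1 and 1 fell under upper-quartile scaling. Of the 83 dirigent, laccase and polyphenol oxidase genes together 28 rose and 10 fell (6 without wounded library B), and of 3 sperm and antheridium genes 1 rose and 1 fell. MpRBCS, the single tested photosynthesis gene with a symbol, was not called. On the V chromosome MpVg01180 and MpVg00970 fell, at -0.45 and -0.38, and MpVg00923 rose by 0.49. In CPM, the 3919 genes that rose gained 162195 in sum and the 3100 that fell lost 137534. The 100 largest gains came to 42600 and the 100 largest losses to 64088. Both the levels and the genes summed are those of TMM scaling, so the balance of these sums depends on it.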
